A study of Mus musculus with 2 samples.

Results

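The microRNA cluster of miR-143 and miR-145a was described through its 4 mature forms, mmu-miR-143-3p, mmu-miR-143-5p, mmu-miR-145a-5p and mmu-miR-145a-3p (written without the mouse prefix below), taken by name from 1909 mature microRNA names counted by small RNA sequencing. All 4 were detected in both libraries. One library came from control db/+ mice, labelled Lepr+/-, and the other from type 2 diabetic db/db mice, labelled BKS.Cg-m+/+Leprdb/J, a stock whose name also lists m, the misty coat-colour allele. The leptin receptor is Lepr, and db is its loss-of-function allele, so db/db mice become obese and diabetic while db/+ mice keep 1 working copy. Both libraries were made from vascular smooth muscle cells of the thoracic aorta of male mice aged 10 to 12 weeks, cultured in DMEM/F-12 medium with 10% fetal bovine serum. The passage and the number of mice behind each culture are not given in the sources used here. With 1 library per group there was no replicate check and no test of genotype, and each difference below is one between these 2 libraries. The libraries are called the control library (db/+) and the diabetic library (db/db).

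A microRNA hairpin is cut into a 5p and a 3p strand, of which the more abundant, the guide, is loaded into Argonaute to repress messenger RNAs, while the other, the passenger, is mostly degraded. The hairpins of miR-143 and miR-145 are processed from 1 primary transcript that serum response factor and myocardin activate in smooth muscle. The pair is known for holding vascular smooth muscle in its contractile state, with miR-145 repressing Klf4 and Klf5 and miR-143 repressing Elk1, factors that favour the proliferative state. In the GENCODE M21 annotation of GRCm38 (mm10), Mir143 lay on chromosome 18 from 61649196 to 61649258 and Mir145a from 61647825 to 61647894, both on the minus strand, 1301 bases apart. Neither hairpin overlapped another annotated gene. The long noncoding RNA gene Carmn ended 366 bases upstream of Mir143 on the same strand, and the long noncoding RNA gene Bvht ended 352 bases beyond Mir145a on the plus strand.

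Library totals were 25915732 counts in control cells and 24295112 in diabetic cells, over 881 and 833 detected microRNAs, and levels are counts scaled to 1000000 microRNA counts (CPM, counts per 1000000). A count of 0, taken to allow 3 counts, allowed 0.116 CPM in control cells and 0.123 in diabetic cells. Intervals are exact 95% (Clopper-Pearson) and, like this limit, cover counting error only, as reads without molecular identifiers are not independent molecules. Mature microRNAs are nearly equal in length, so levels were compared between them without scaling for length. How well each sequence was captured in library preparation was not measured or corrected for. Comparisons between different microRNAs or strands are therefore of counts, which may differ from amounts in the cells.

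The guide strand miR-143-3p was the most abundant form of the cluster in each library. It had 31153 counts in control cells, a level of 1202 CPM (1189 to 1216), and 28364 counts in diabetic cells, a level of 1167 CPM (1154 to 1181). It ranked 30 by counts in both libraries and made up 72.6% of the cluster's counts in control cells and 74.5% in diabetic cells. The other guide, miR-145a-5p, had 9674 counts in control cells (373 CPM, 366 to 381) and 7207 in diabetic cells (297 CPM, 290 to 304), ranking 48 and 55. Its level was lower in the diabetic library, and the counting intervals did not overlap.

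Both passenger strands were well below their guides. For miR-143-5p there were 1797 counts in control cells (69.3 CPM, 66.2 to 72.6) and 2228 in diabetic cells (91.7 CPM, 87.9 to 95.6), so this strand was higher in diabetic cells with intervals apart. For miR-145a-3p there were 284 counts in control cells (11.0 CPM, 9.72 to 12.3) and 260 in diabetic cells (10.7 CPM, 9.44 to 12.1), with overlapping intervals. The order of levels, miR-143-3p, miR-145a-5p, miR-143-5p, miR-145a-3p, was the same in both libraries, and the counting intervals of neighbours in that order were apart within each library. The steps were not equal in the 2 libraries. The count of miR-145a-5p was 5.38 times that of miR-143-5p in control cells and 3.23 times in diabetic cells, and the step from miR-143-5p to miR-145a-3p was 6.33 times in control cells and 8.57 times in diabetic cells.

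**Figure D1:**
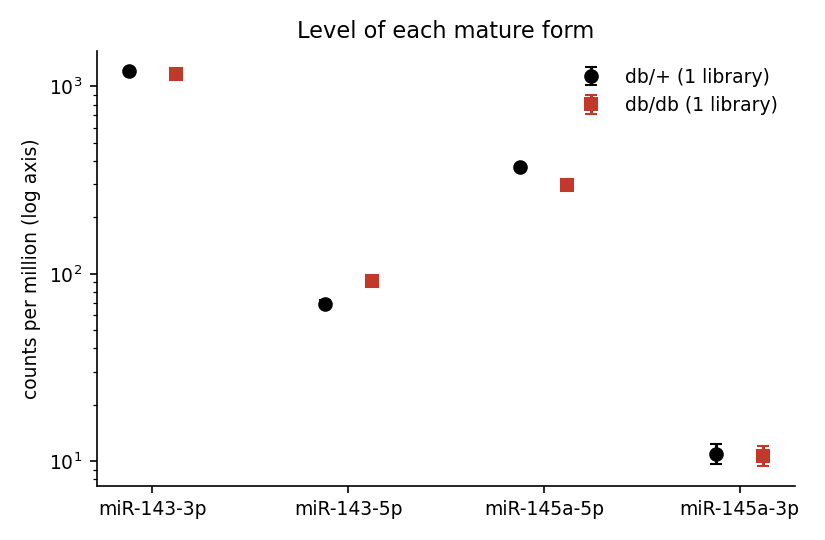
Level of the 4 mature forms in CPM on a log axis, with the control library as circles and the diabetic library as squares, and bars for the exact 95% counting interval, mostly smaller than the marks. The order of the forms is the same in both libraries, miR-145a-5p is lower in diabetic cells (297 against 373 CPM) and miR-143-5p higher (91.7 against 69.3 CPM).

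The cluster held a small share of each library. Its 4 forms summed to 42908 counts in control cells (0.166% of all microRNA counts) and 38059 in diabetic cells (0.157%). The let-7 family with miR-98 held 81.4% of counts in control cells and 81.3% in diabetic cells, and let-7c-5p alone had 264 times the count of miR-143-3p in control cells and 272 times in diabetic cells. Among the counts outside that family, the cluster made up 0.892% in control cells and 0.838% in diabetic cells, and miR-143-3p ranked 22 in both. The name miR-145b, whose hairpin lies elsewhere on chromosome 18 (69022199 to 69022273, minus strand), had 1 count in control cells and 0 in diabetic cells, both within what a count of 0 allows. No other name had the same pair of counts as a member.

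Differences between the libraries were small for miR-143-3p and larger for miR-145a-5p and miR-143-5p. The ratio of levels, diabetic over control, was 0.971 (0.956 to 0.987) for miR-143-3p and 0.977 (0.822 to 1.16) for miR-145a-3p. It was 0.795 (0.771 to 0.819) for miR-145a-5p, a change of -20.5%. It was 1.32 (1.24 to 1.41) for miR-143-5p, a change of 32.3%. With both arms added, the miR-143 hairpin had a ratio of 0.990 (0.975 to 1.006) and the miR-145a hairpin 0.800 (0.776 to 0.824). The summed cluster had a ratio of 0.946 (0.933 to 0.959). In bulk RNA, fewer cells of a type and less RNA per cell cannot be told apart.

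None of the 4 forms reached the size rule used across all microRNAs. Of 356 microRNAs that reached 50 counts in either library, 18.0% had a ratio of at least 2 or at most 0.5, with 4.49% higher and 13.5% lower. All 4 members were past this floor and 0 reached 2-fold. At 1.5-fold 37.6% of the 356 were called, and again 0 members. Some of the 356 names, such as miR-466a-3p and miR-466e-3p, have identical counts and were entered separately. These shares are therefore over names, which are not all independent. The median log2 ratio of the 356, with 0.5 counts added, was -0.14, and against that median miR-143-5p lay 0.54 above, miR-145a-5p at -0.19, miR-143-3p 0.10 above and miR-145a-3p 0.11 above. These distances to the median do not depend on the library scaling.

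**Figure D2:**
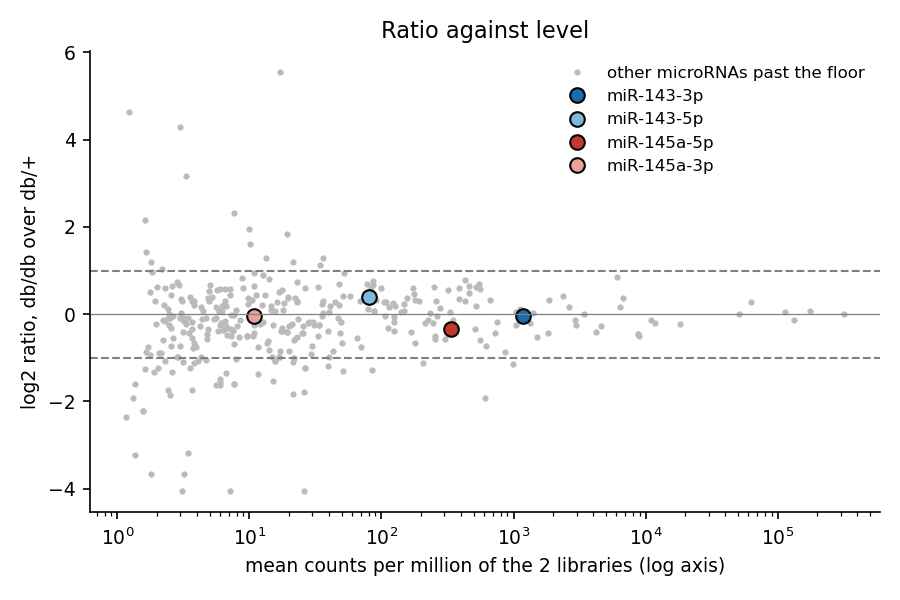
Log2 ratio of diabetic over control against the mean level in CPM (log axis) for the 356 microRNAs past the floor in grey, with the 4 members as large points and dashed lines at 2-fold. All 4 members lie between the dashed lines, miR-143-5p at 0.40 and miR-145a-5p at -0.33.

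MicroRNAs of similar level gave a closer background. Within 2-fold of the mean level of miR-143-3p there were 16 others, with ratios from 0.264 to 1.25 and a median of 0.854, and 2 of them lay nearer to 1 than miR-143-3p. Near the level of miR-145a-5p there were 35 others with a median ratio of 1.14, of which 26 had a higher ratio than miR-145a-5p and 9 a lower one. Near miR-143-5p there were 42 others with a median of 1.13, 10 with a higher ratio and 32 with a lower one. Thus miR-145a-5p lay toward the lower end and miR-143-5p toward the higher end of microRNAs counted at like depth, each well inside their range.

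The direction of the small difference in miR-143-3p depended on how the libraries were scaled. The authors' deposited TMM-normalized reads were 29262 in control cells and 30197 in diabetic cells for miR-143-3p, a ratio of 1.03, and 267 and 277 for miR-145a-3p, a ratio of 1.04. They were 9087 and 7673 for miR-145a-5p and 1688 and 2372 for miR-143-5p, ratios of 0.844 and 1.41. Over 6 other scalings the ratio of miR-145a-5p stayed between 0.790 and 0.850 and that of miR-143-5p between 1.31 and 1.41, so both kept their direction. For miR-143-3p the range was 0.965 to 1.04 and for the summed cluster 0.940 to 1.01, on both sides of 1.

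**Figure D3:**
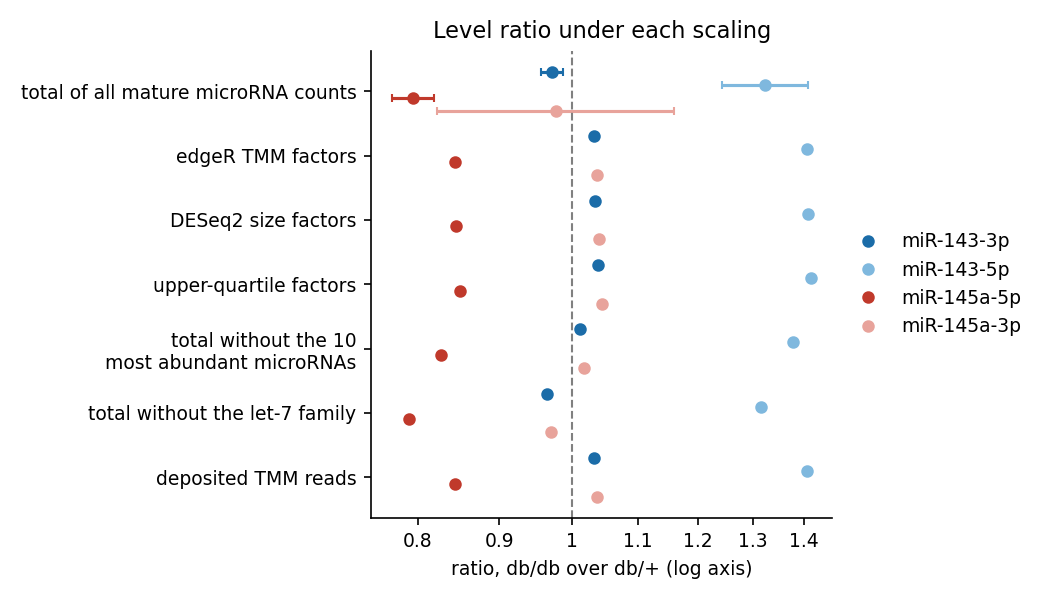
Ratio of diabetic over control on a log axis for each member under 7 scalings, with the exact 95% counting interval at the scaling by total counts and a dashed line at 1. Points for miR-145a-5p stay between 0.790 and 0.850 and those for miR-143-5p between 1.31 and 1.41, while miR-143-3p and miR-145a-3p fall on both sides of 1.

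The balance between the 2 guide strands does not depend on scaling, and it differed between the libraries. There were 3.22 counts of miR-143-3p per count of miR-145a-5p in control cells (3.15 to 3.29) and 3.94 in diabetic cells (3.84 to 4.04), a 1.22-fold difference (1.18 to 1.27). The passenger strands shifted the same way, with 6.33 counts of miR-143-5p per count of miR-145a-3p in control cells (5.58 to 7.20) and 8.57 in diabetic cells (7.53 to 9.78), a 1.35-fold difference (1.13 to 1.63). Both strands of miR-143 were therefore higher relative to the matching strand of miR-145a in the diabetic library.

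Such a gap between neighbours was common in these libraries. Hairpins were kept if a name past the floor had counts of its own and matched 1 precursor gene by name. Each was represented by its more abundant such strand. Among 74 pairs on 1 strand within 10 kb, adjacent among kept hairpins, the 2 log2 ratios differed by a median of 0.37. Hairpins left out can lie between the 2 of a pair. The pair of Mir143 and Mir145a differed by 0.29, with 25 pairs closer and 48 farther apart. In 7 pairs this left a hairpin, such as Mir16-1, Mir24-2 or Mir29b-1, represented by its weaker strand, since the stronger one has several precursor genes or the same counts as another name, and without them the median over 67 pairs was 0.37, with 22 closer and 44 farther apart. Of the 74 pairs 39 were on chromosome 12, which holds the large imprinted Dlk1-Dio3 cluster, and among the 35 elsewhere the median was 0.44, with 7 pairs closer and 27 farther apart. Where both strands had at least 100 CPM there were 11 pairs, 2 closer and 8 farther apart. One of the closer pairs was Mir221 and Mir222 on chromosome X, at 0.26. One hairpin can enter more than 1 pair, so the pairs are not independent and these counts are a description.

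**Figure D4:**
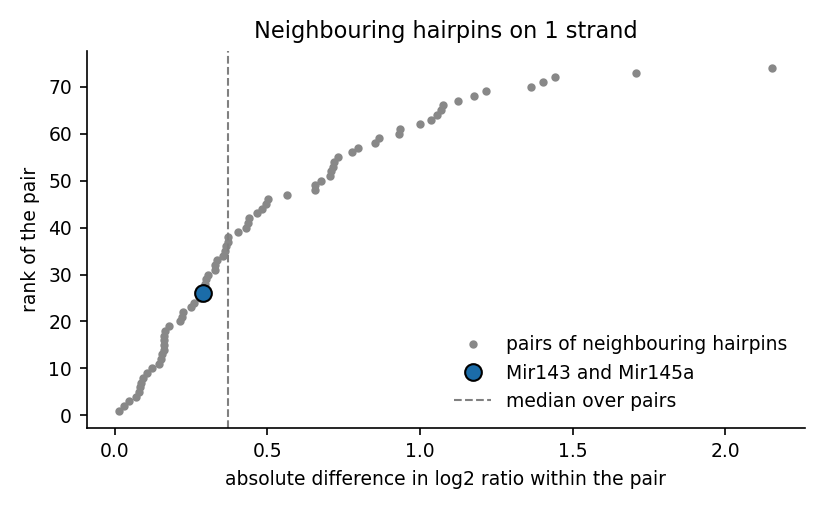
Absolute difference in log2 ratio between the members of each of 74 pairs of neighbouring hairpins, in order of size, with the pair of Mir143 and Mir145a as the large point and the median over pairs as the dashed line. The pair lies at 0.29, to the left of the median of 0.37.

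Strand choice followed the known pattern, with 3p the guide of miR-143 and 5p the guide of miR-145a, and in both hairpins the passenger took a slightly larger share in the diabetic library. Of the miR-143 counts, 5.45% were on the 5p passenger in control cells and 7.28% in diabetic cells, and the 3p guide held 94.5% (94.3 to 94.8) and 92.7% (92.4 to 93.01), so the intervals were apart. The odds of the 5p strand were 1.36 times as high in diabetic cells (1.28 to 1.45). Of the miR-145a counts, 2.85% were on the 3p passenger in control cells (2.53 to 3.20) and 3.48% in diabetic cells (3.08 to 3.92). Those intervals overlapped, while the odds of the 5p guide had a ratio of 0.814 (0.683 to 0.969).

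Set beside 204 hairpins with at least 50 counts over both strands in each library, the arm differences of the cluster were near the middle. The absolute difference in 5p share was 1.83 percentage points for miR-143, larger than in 121 of the hairpins and smaller than in 82, and 0.630 for miR-145a, larger than in 88 and smaller than in 115. The median was 0.917 points. Intervals of the 2 libraries were apart in 26.0% of the 204. Some names, such as miR-199a and miR-199b, have identical counts on a strand and were entered separately, so the 204 are not all independent. The order changed among deeply counted hairpins. Of 52 with at least 5000 counts in each library the median difference was 0.105 points, 46 differed by less than miR-143 and 5 by more, and 41 differed by less than miR-145a and 10 by more. Intervals were apart in 40.4% of those 52. Over the 204, the strand that was minor in control cells had a larger share in diabetic cells in 80 hairpins, a smaller one in 107 and an equal one in 17.

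**Figure D5:**
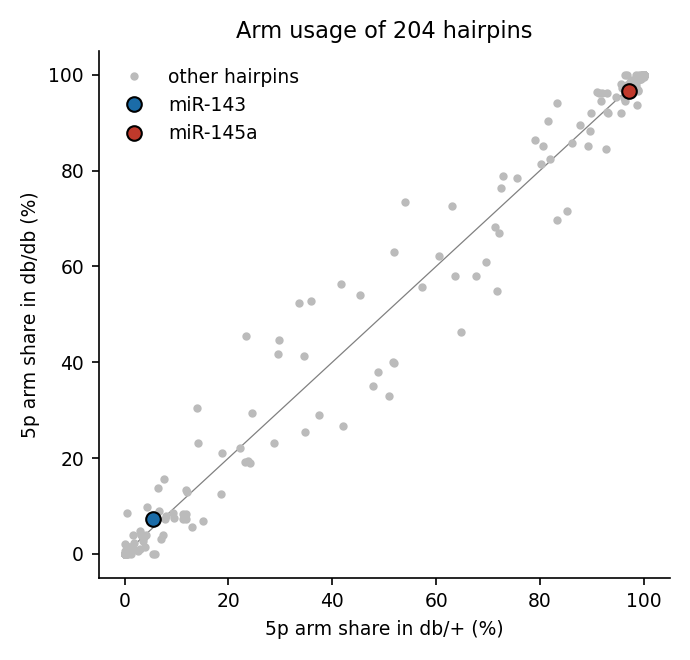
Percent of the counts of a hairpin that fell on the 5p arm in the control library (x axis) and the diabetic library (y axis), for 204 hairpins, with the line of equal shares. The miR-143 point lies just above the line (5.45% and 7.28%) and the miR-145a point just below it near the upper end.

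The microRNAs most like each guide were found by the distance in log2 CPM over the 2 libraries, which combines level and ratio and rests on 2 values each. Nearest to miR-143-3p were miR-1839-5p, at a ratio of 1.02 on 31175 and 29803 counts, then miR-222-3p with 27884 and 28385 counts and miR-152-3p with 36838 and 30079. Nearest to miR-145a-5p were miR-31-5p with 9374 and 8009 counts, miR-503-5p with 8360 and 8134, and miR-22-3p with 9316 and 5857. The distances were 0.07 to 0.26 for the first group and 0.16 to 0.30 for the second. In diabetic cells miR-222-3p and miR-143-3p were at 1168 and 1167 CPM, a level that could not be told apart by counting error.

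Other microRNAs linked to the contractile state were on both sides of 1. Of 10 listed, 8 were past the floor, 3 with ratios above 1 and 5 below, 0 higher and 1 lower by 2-fold or more, and the median log2 ratio was -0.50. Over all 356 there were 153 above 1 and 203 below, 4.49% higher and 13.5% lower at 2-fold, and a median of -0.14, so the counts of the list were near the background. The lower one, miR-195a-5p, had only 51 counts in control cells and 9 in diabetic cells. The muscle microRNA miR-1a-3p, also a target of serum response factor, had 920 counts in control cells and 1664 in diabetic cells, a ratio of 1.93 (1.78 to 2.09) that reached 2.01 to 2.06 under 4 of 5 other scalings. The higher count left 33.9 counts of miR-143-3p per count of miR-1a-3p in control cells and 17.05 in diabetic cells. Its usual partner miR-133a-3p had 1 count in each library and miR-133b-3p had 0 in each. The most abundant of the list, miR-10a-5p, had 4329 CPM in control cells and 7769 in diabetic cells, a ratio of 1.79, and miR-100-5p had a ratio of 1.17. Lower ones were miR-23b-3p at 0.741, miR-22-3p at 0.671, miR-322-5p at 0.554 and miR-34a-5p at 0.505. For miR-23b and miR-322 the unlisted strand went the other way. These were miR-23b-5p with 10852 and 16439 counts (ratio 1.62) and miR-322-3p with 8874 and 10595 (ratio 1.27). The latter was the more abundant strand of its hairpin in both libraries. Unlisted strands miR-22-5p and miR-34a-3p were also lower, at 0.605 and 0.935. The list median rests on the listed strands only.

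Growth-linked microRNAs lay near the background of all microRNAs. All 10 listed were past the floor, 3 with ratios above 1 and 7 below, with a median log2 ratio of -0.20 beside -0.14 for all 356, of which 57.0% were below 1. Past 2-fold were miR-146a-5p, which was higher (65 and 308 counts), and miR-17-5p, which was lower (1422 and 589 counts), 2 of 10 beside 18.0% of all 356. Both lists were chosen with earlier results of these data known.

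The growth-linked microRNAs best known from injured vessels are shown by their mature sequences from RefSeq (GRCm38.p6), 5′ to 3′, with the seed, bases 2 to 8, in capitals. The seed is the stretch that pairs with target messenger RNAs.
miR-21a-5p: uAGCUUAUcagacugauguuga
miR-221-3p: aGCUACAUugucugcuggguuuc
miR-222-3p: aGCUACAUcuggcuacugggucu
The first is encoded on chromosome 11 (86584120 to 86584141, minus strand), and the others, which share their seed, on chromosome X (19146307 to 19146329 and 19146901 to 19146923, minus strand). For miR-21a-5p, the most abundant of the list, the level was 10479 CPM in control cells and 7399 in diabetic cells, a ratio of 0.706. The count of miR-143-3p was thus 0.115 times that of miR-21a-5p in control cells and 0.158 times in diabetic cells, a 1.38-fold difference (1.35 to 1.40). For miR-145a-5p the same comparison gave 0.0356 and 0.0401, a 1.13-fold difference (1.09 to 1.16). Both guides of the cluster were therefore higher relative to miR-21a-5p in the diabetic library, whatever the scaling. The seed partners miR-221-3p and miR-222-3p, which repress the cell cycle inhibitor p27, had ratios of 0.906 and 1.09. The rest of the list had ratios of 0.837 for miR-24-3p, 0.661 for miR-26a-5p, 0.911 for miR-31-5p, 0.677 for miR-130a-3p and 1.02 for miR-92a-3p. Unlisted strands miR-221-5p and miR-222-5p went the other way from their listed strands, at 1.04 and 0.941. The strands miR-21a-3p, miR-31-3p, miR-17-3p, miR-24-2-5p and miR-92a-1-5p went the same way, at 0.848, 0.533, 0.666, 0.827 and 1.24. The median of this list also rests on the listed strands only.

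The libraries were checked for microRNA markers of other cell types. The smooth muscle markers listed were the 4 forms of the cluster itself, so they give no separate check of the labelled cell type. The 2 endothelial markers summed to 0.270 CPM in control cells and 2.92 in diabetic cells, with miR-126a-5p at 2 and 58 counts and miR-126a-3p at 5 and 13. The 6 blood markers summed to 6.48 and 6.71 CPM, with miR-144-3p, miR-223-3p and miR-142a-3p at 0 in both libraries, and the 6 epithelial markers to 0.270 and 0.906 CPM. Among listed markers shared with other mesenchymal or muscle cells, only miR-206-3p and miR-199a-3p were above the summed cluster (1656 and 1567 CPM). The others were below it in both libraries, the highest being miR-152-3p at 1421 and 1238 CPM. Skeletal muscle's miR-206-3p had 2.06 times the count of miR-143-3p in control cells and 2.37 times in diabetic cells, and dominated a striated muscle list of 7 that summed to 2509 and 2833 CPM and had miR-133b-3p, miR-208a-3p and miR-208b-3p at 0. The fibroblast-linked miR-199a-3p, listed with the same counts as miR-199b-3p, had 8.49 and 6.36 times the count of miR-143-3p, and its list of 5 summed to 11774 and 8810 CPM. Within that list miR-10b-5p went the other way, with 18 and 816 counts. The part of these cells in the levels of the cluster was not tested.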

How the data were processed

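Small RNA libraries were prepared by a standard Illumina protocol from total RNA extracted on columns, per the labels' protocols. Per the submitters' processing notes, the authors used Novoalign, edgeR and mm10. Their versions, and how reads were trimmed and shared among similar microRNAs, are not given in the sources used here. Each deposited table holds raw counts and TMM-normalized reads, per the file headers. The deposited TMM reads are whole numbers, equal within 1 read to the count times 0.939 in db/+ for 874 of 881 detected microRNAs and times 1.065 in db/db for 829 of 833, so they were treated as a score and used only as an alternative scaling.

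Counts were scaled to each library's total of 25915732 or 24295112. Ratios carry exact conditional 95% intervals, and differences between within-library ratios or arm odds carry exact conditional odds-ratio intervals (SciPy 1.17.1). No p-value was computed, since 1 library per group leaves no residual degrees of freedom. Alternative scalings used edgeR 4.0.16 and DESeq2 1.42.0 factors only. The floor was 50 counts in a library and the size rule was 2-fold. On simulated data for db/db over db/+ with 1909 microRNAs, 95.9% of intervals held the simulated ratio over 343 past the floor. The simulated counts carried counting (Poisson) error only, which is the error the intervals assume. It therefore checks the calculation and says nothing of the spread between cultures or of duplicated reads.

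Named microRNAs were the 4 members, miR-145b, list members past the floor, the 3 nearest to each guide in level, and cell type markers. The pair Mir221 and Mir222 and let-7c-5p were named outside that rule or after their values were seen. So were miR-199b-3p, the unlisted strands of list members, and the names given as examples of weaker strands or identical counts. Members and lists were chosen with earlier results of these data known. The limit of 5000 counts for deeply counted hairpins and that of 100 CPM for pairs were chosen after the files were opened.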

Additional observations from a re-analysis of the deposited data

How the results depend on the processing

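Scaling decided the direction of the smallest differences. The ratio of miR-143-3p was 1.03 with edgeR TMM, DESeq2 and deposited TMM scaling, 1.04 with upper-quartile factors and 1.01 without the 10 most abundant microRNAs. The summed cluster was 1.005 with both TMM scalings, 1.007 with DESeq2, 1.01 with upper quartile and 0.986 without the 10 most abundant. For miR-145a-5p the values were 0.844 (both TMM), 0.846, 0.850 and 0.828 in that order, and for miR-143-5p 1.41 with upper quartile. These scalings shift all log2 ratios by 0.06 to 0.10, and leaving let-7 out of the total by -0.01. Counts of microRNAs past the size rule followed the threshold by construction, namely 46 higher and 91 lower for a 10-count floor, 171 and 259 without one, and 48 and 86 at 1.5-fold, with 0 members each time. The median arm difference was 0.515 points at a floor of 200 counts, below that of miR-145a, where fewer hairpins were compared. The other 74 alternative values stayed within their counting interval, 0.1 on the log2 scale for list medians, or 1.5-fold for counts and medians over hairpins or pairs. Use of the deposited TMM reads and removal of pairs with a weaker strand were chosen after the data were seen. For miR-145a-3p, 284 and 260 counts leave an interval of 0.822 to 1.16, so a smaller difference was not detectable at this depth. No paired analysis was possible because there was 1 library per group, which also left no fit without a library.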
